A study of Mus musculus with 2 samples.

Results

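The Mir322, Mir503 and Mir351 cluster is a group of 7 microRNA genes on the mouse X chromosome: Mir322, Mir503, Mir351, Mir542, Mir450a-2, Mir450a-1 and Mir450b. The genes were chosen by their symbols, with no measured value, from the 2202 microRNA genes counted in the deposited tables, and all 7 have a row there. For 2 genes the symbol differs from that in release M21 of the GENCODE annotation, in which Mir450a-1 is written Mir450-1 and Mir450a-2 is written Mir450-2. Hearts came from B6CASTF1/J females, 2 months old, which are first-generation hybrids of C57BL/6J and CAST/EiJ, so each X chromosome comes from a different strain. The labels give 1 group of 2 biological replicates, with no treatment, no mutant and no contrasting condition. The females carry different numbers and yet 1 shared donor label, so it is not certain that 2 animals were sampled, and the spread between the libraries may be partly technical. RNA shorter than 30 bases was sequenced per the labels, and reads were counted per microRNA gene on the gene's own strand.

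MicroRNAs are cut from hairpins in longer transcripts, and a mature strand guides repression of messenger RNAs that pair with its seed, bases 2 to 8. Hairpins that lie close together on 1 strand are often cut from 1 primary transcript, called a polycistron, yet each hairpin can be processed and its product retained to its own extent. miR-322 is the mouse counterpart of human miR-424, and miR-322 and miR-503 are known for repressing cyclin and Cdc25a messages and for promoting withdrawal from the cell cycle during muscle cell differentiation. miR-351 carries the seed of the miR-125 family, miR-542-3p represses the survival factor survivin in human cells, and the miR-450 genes are the least studied of the group.

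In mm10 the 7 hairpins lie on the minus strand of chromosome X between 53047997 and 53054349, a span of 6353 bases. Along the transcribed strand the order is Mir322, Mir503, Mir351, Mir542, Mir450a-2, Mir450a-1 and Mir450b. Mir503 begins 200 bases after the end of Mir322, and Mir351 begins 630 bases after Mir503. A gap of 3767 bases separates Mir351 from Mir542, and 1035 bases separate Mir542 from Mir450a-2. The last 3 hairpins are packed more closely, with 54 bases between Mir450a-2 and Mir450a-1 and 75 bases between Mir450a-1 and Mir450b. GENCODE M21 holds no gene over the whole span. In RefSeq only C430049B03Rik was examined, and it does not cover the whole span. RefSeq's C430049B03Rik, a long noncoding RNA at X:53053112-53057190 on GRCm38.p6, encloses Mir322, Mir503 and Mir351, whereas GENCODE M21 ends that gene at 53055046, upstream of Mir322, and places none of the 7 hairpins inside another gene. Counts of short reads do not show whether the 7 hairpins shared a transcript in this tissue.

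**Figure D1:**
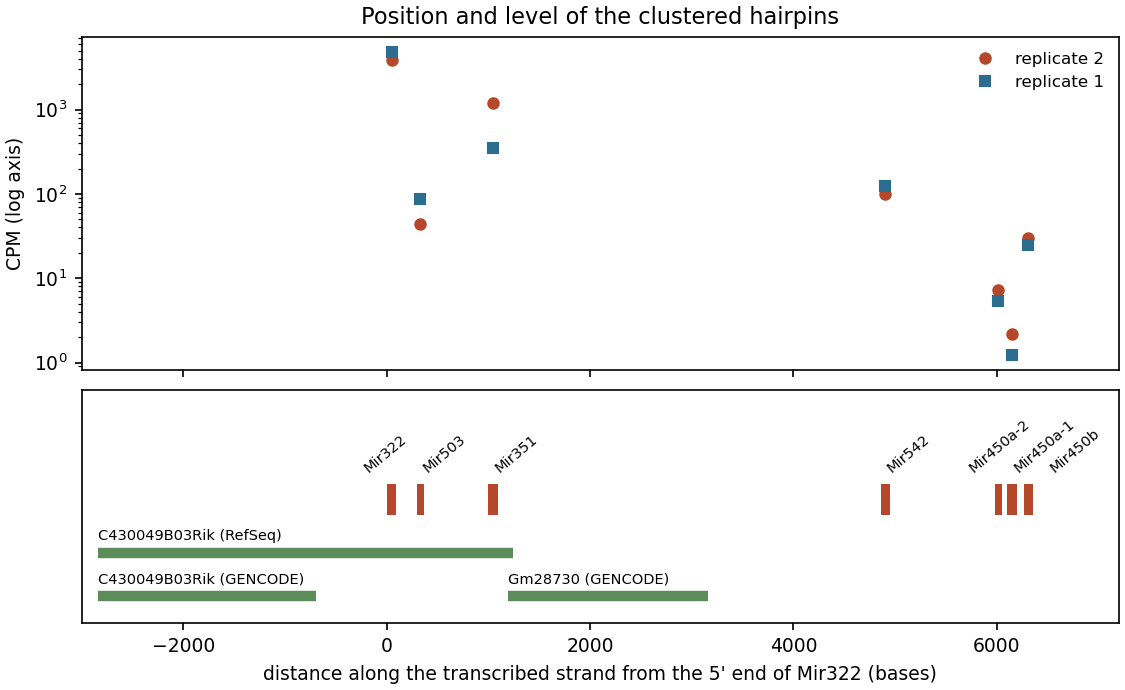
Upper panel, CPM on a log axis in replicate 2 (circles) and replicate 1 (squares) for each hairpin; lower panel, hairpins (red) and annotated long noncoding RNA genes (green), against distance in bases along the transcribed strand from the 5′ end of Mir322. The level did not fall steadily with distance: Mir503, 200 bases after Mir322, had 44.0 CPM in replicate 2 and 87.4 CPM in replicate 1, below Mir351 and Mir542 further along.

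The mature sequences below are shown because the cluster's products fall into distinct seed groups, and the levels given later differ between them. Each is written 5′ to 3′ as RefSeq gives it for GRCm38.p6, with the seed in capitals. The 5′ arm products of Mir322 and Mir503 share bases 2 to 7 and differ in base 8, and miR-322-5p has the same seed as miR-15a-5p, miR-15b-5p, miR-16-5p, miR-195a-5p and miR-497a-5p:
miR-322-5p: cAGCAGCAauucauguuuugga
miR-503-5p: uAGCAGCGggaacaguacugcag
miR-15b-5p: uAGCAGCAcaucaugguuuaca
miR-16-5p: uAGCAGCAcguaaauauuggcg
miR-195a-5p: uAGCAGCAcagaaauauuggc
miR-497a-5p: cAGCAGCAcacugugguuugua

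The 5′ arm product of Mir351 has the seed of miR-125a-5p and miR-125b-5p, which are made from genes on other chromosomes:
miR-351-5p: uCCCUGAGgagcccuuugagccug
miR-125a-5p: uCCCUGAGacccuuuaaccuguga
miR-125b-5p: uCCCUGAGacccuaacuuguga

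The remaining products carry other seeds, and 1 of them, miR-450a-5p, is identical at Mir450a-1 and Mir450a-2 over all 22 bases. miR-450b-5p differs from miR-450a-5p at 7 of 22 positions, and miR-450b-3p differs from miR-450a-1-3p at 2 of 22 positions:
miR-542-5p: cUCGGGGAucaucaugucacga
miR-542-3p: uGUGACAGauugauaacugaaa
miR-450a-5p: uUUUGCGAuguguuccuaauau
miR-450a-1-3p: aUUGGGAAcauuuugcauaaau
miR-450a-2-3p: aUUGGGGAugcuuugcauucau
miR-450b-5p: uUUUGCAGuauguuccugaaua
miR-450b-3p: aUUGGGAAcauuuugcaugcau

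The hairpins of Mir450a-2 and Mir450a-1 share an exact stretch of 25 bases, which takes in the whole of miR-450a-5p. They are shown with both mature arms in capitals because the deposited tables assign no multimapping read to a gene, so a read of the shared arm alone could be counted for neither:
Mir450a-2, X:53048299-53048367, minus strand: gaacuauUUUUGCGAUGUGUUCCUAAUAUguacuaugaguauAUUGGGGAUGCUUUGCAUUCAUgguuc
Mir450a-1, X:53048154-53048244, minus strand: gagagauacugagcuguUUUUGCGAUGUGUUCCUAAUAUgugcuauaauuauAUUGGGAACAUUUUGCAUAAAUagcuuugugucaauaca

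For the other 5 members no run of 20 bases recurs in a different annotated hairpin, so at that length the limit touches Mir450a-1 and Mir450a-2. Mir450a-1 and Mir450b share a run of 19 bases, so shorter reads could match both. The counts are per gene and do not tell a 5′ arm from a 3′ arm, so which mature strand was sequenced is not given for any member.

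Replicate 2 held 7995058 reads, of which 2770301 lay on the own strand of a microRNA gene, and replicate 1 held 8069273 reads with 2424441 such counts. Multimapping reads made up 42.7% of replicate 2 and 49.5% of replicate 1. Levels are given as CPM, counts per 1000000 own-strand microRNA counts of the library, and are not divided by hairpin length, since reads come from mature strands of similar size. A count of 10 corresponded to 3.61 CPM in replicate 2 and 4.12 CPM in replicate 1. Detection required this count in each library. All intervals were computed from the counts and cover counting error only. The reads carry no molecular identifiers, so repeat copies of 1 molecule would count as separate reads, which the intervals do not cover. Heart muscle markers were present: Mir208a, Mir208b and Mir499, which lie in myosin genes, were all detected and summed to 0.855% of counts in replicate 2 and 0.598% in replicate 1. The skeletal muscle markers Mir206 and Mir133b held 0.0165% in replicate 2 and 0.0272% in replicate 1.

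The cluster was counted in both libraries at a similar summed level, almost all of it from Mir322 and Mir351. Together the 7 genes had 14405 counts in replicate 2, or 0.520% of all microRNA counts (95% exact Clopper-Pearson interval 0.512 to 0.529), against 13166 counts in replicate 1, or 0.543% (0.534 to 0.552). The mean share was 0.532% ± 0.0163 (SD, n = 2), and the CPM sum in replicate 2 was 0.958 times that in replicate 1. Without Mir322 the other 6 genes held 0.137% in replicate 2 and 0.0596% in replicate 1, a 2.30-fold higher level in replicate 2, so the close agreement holds only for the sum with Mir322. In bulk tissue a difference in the number of cells that make a microRNA cannot be told apart from a difference in its amount per cell.

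Mir322, which represses cell cycle messages through the miR-15/16 seed, was the most abundant member. It had 10605 counts, or 3828 CPM, in replicate 2 and 11721 counts, or 4835 CPM, in replicate 1, a mean of 4331 ± 712 CPM (SD, n = 2). It ranked 33 of 2202 genes in replicate 2 and 31 in replicate 1. Its part of the cluster's counts was smaller in replicate 2, at 73.6% against 89.0% in replicate 1.

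Mir351, the member with the miR-125 seed, followed. It had 3290 counts, or 1188 CPM, in replicate 2, against 859 counts, or 354 CPM, in replicate 1, a mean of 771 ± 589 CPM (SD, n = 2). It made up 22.8% of the cluster's counts in replicate 2 and 6.52% in replicate 1. The libraries were thus much further apart for Mir351 than for Mir322, and its rank was 61 in replicate 2 and 94 in replicate 1.

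Mir542 had 279 counts, or 101 CPM, in replicate 2 and 298 counts, or 123 CPM, in replicate 1, a mean of 112 ± 15.7 CPM (SD, n = 2). Mir503, the partner of Mir322 with a closely related seed, had 122 counts, or 44.0 CPM, in replicate 2 and 212 counts, or 87.4 CPM, in replicate 1, a mean of 65.7 ± 30.7 CPM. Although it lies nearest to Mir322, Mir503 gave 86.9-fold fewer counts than Mir322 in replicate 2 (95% exact interval 72.7 to 105). In replicate 1 the difference was 55.3-fold (48.3 to 63.6).

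The 3 miR-450 genes at the far end of the cluster had the lowest counts. Mir450b had 83 counts, or 30.0 CPM, in replicate 2 and 60 counts, or 24.7 CPM, in replicate 1, a mean of 27.4 ± 3.69 CPM (SD, n = 2). Mir450a-2 had 20 counts, or 7.22 CPM, in replicate 2 and 13 counts, or 5.36 CPM, in replicate 1. Mir450a-1 had 6 counts in replicate 2 and 3 in replicate 1, or 2.17 and 1.24 CPM, and was the only member below the detection limit. The levels of Mir450a-2 and Mir450a-1 are uncertain for their shared arm.

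**Figure D2:**
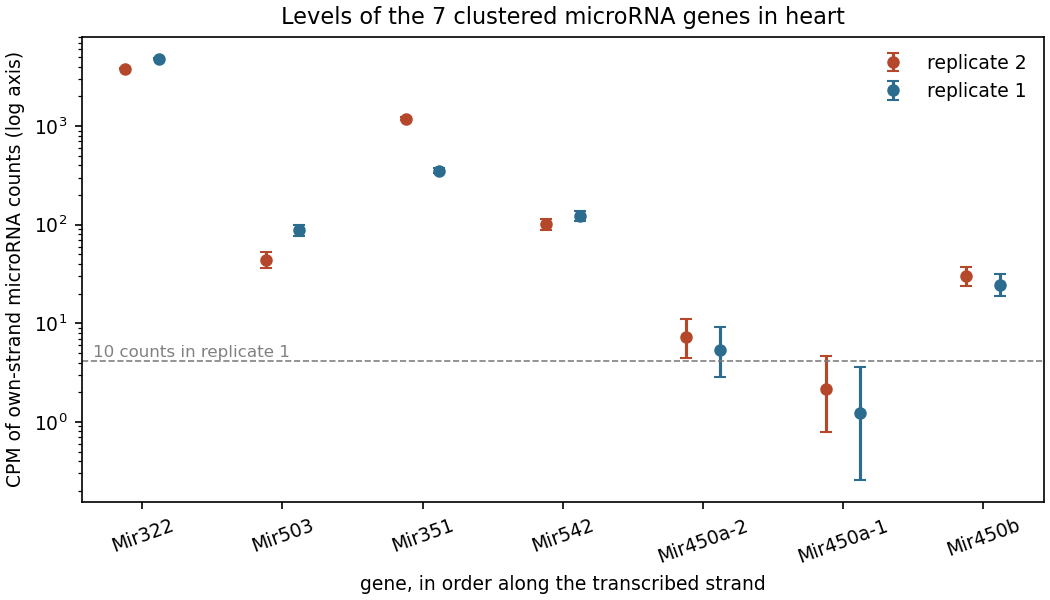
CPM of own-strand microRNA counts on a log axis for the 7 genes in order along the transcribed strand, in replicate 2 (left point of each pair) and replicate 1 (right point); bars are 95% exact Poisson intervals for counting error, and the dashed line marks 10 counts in replicate 1. Mir322 is the highest gene in each library (replicate 2, 3828 CPM, and replicate 1, 4835 CPM), the points of Mir351 are the furthest apart among the 6 detected genes (1188 CPM in replicate 2, 354 CPM in replicate 1), and Mir450a-1 lies under the line.

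Ordered by mean CPM, the members ran Mir322, Mir351, Mir542, Mir503, Mir450b, Mir450a-2 and Mir450a-1. This order was the same in each library, and no 2 neighbours had overlapping values across the libraries. Across libraries, Mir542 in replicate 2 (101 CPM) lay just above Mir503 in replicate 1 (87.4 CPM), Mir503 in replicate 2 (44.0 CPM) above Mir450b in replicate 2 (30.0 CPM), and Mir450a-2 in replicate 1 (5.36 CPM) above Mir450a-1 in replicate 2 (2.17 CPM). With 2 libraries the order is a description. Detection of 6 of 7 members stands beside 13.9% of all 2202 microRNA genes that reached 10 counts in both libraries.

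No read was counted on the strand opposite to any of the 7 genes in either library. Their either-strand counts were therefore equal to their own-strand counts.

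The comparison of replicate 2 with replicate 1 asked whether the members kept their proportions from library to library. Mir351 was 3.35-fold higher in replicate 2 (95% exact interval 3.11 to 3.62, log2 ratio 1.74), while Mir503 was 1.99-fold lower (1.58 to 2.50, log2 ratio -0.99) and Mir322 was 1.26-fold lower (1.23 to 1.30, log2 ratio -0.34). Given the totals of both libraries, a two-sided exact binomial test with Benjamini-Hochberg adjustment over the 306 detected genes gave an adjusted p of 9.76e-265 for Mir351, 2.50e-09 for Mir503 and 3.58e-67 for Mir322. Mir542 was 1.22-fold lower in replicate 2 (1.03 to 1.44), with an adjusted p of 0.0297 by the same exact test. This test compares 2 libraries beyond counting error and does not measure the spread between animals.

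Mir450b and Mir450a-2 did not pass the test. The ratio of replicate 2 over replicate 1 was 1.21 for Mir450b (exact interval 0.858 to 1.72, adjusted p = 0.358) and 1.35 for Mir450a-2 (0.637 to 2.95, adjusted p = 0.575). Both intervals take in 1, and that of Mir450a-2 is wide enough to hold more than a 2-fold difference upward.

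Of the 6 members tested, 4 were called, with 1 higher and 3 lower in replicate 2. Among all 306 genes 61.1% were called, 19.6% higher and 41.5% lower, so the share of members called was near that of the whole table. With a difference of at least 1.5-fold also required, 2 of 6 members were called, Mir351 higher and Mir503 lower, beside 36.6% of all genes, 11.1% higher and 25.5% lower. The members' median log2 ratio was -0.01 and that of all detected genes was -0.19. Within the spread of the whole table, with an SD of 0.83 in log2 ratio, 6 genes had a higher log2 ratio than Mir351, and 41 had a lower one than Mir503.

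**Figure D3:**
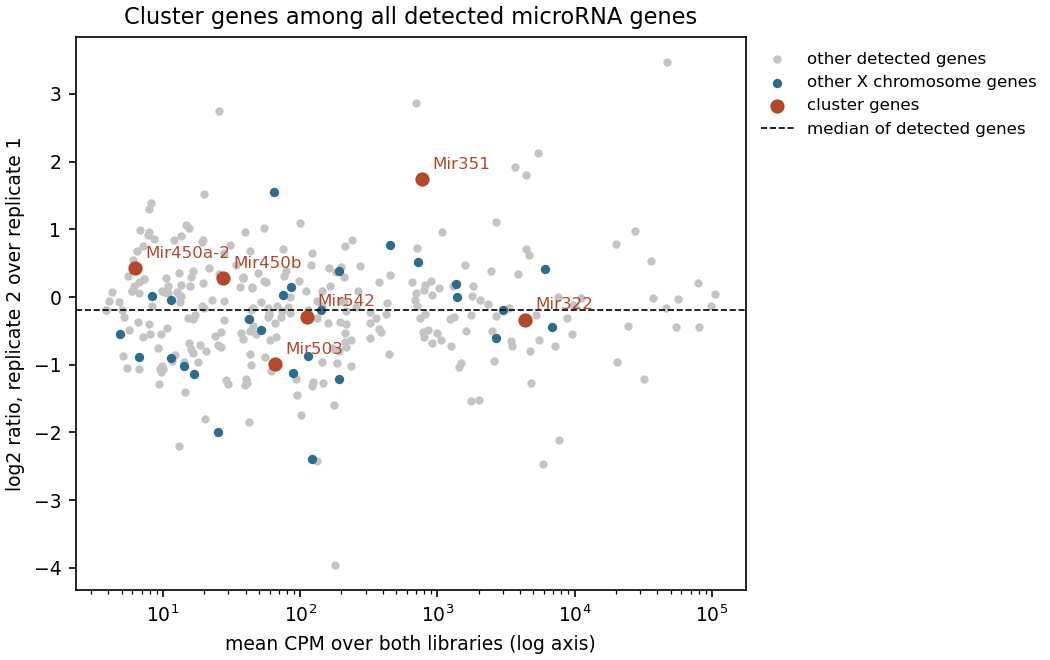
Log2 ratio of replicate 2 over replicate 1 against mean CPM on a log axis for the 306 detected genes, with cluster genes in red, other X chromosome genes in blue, all others in grey and the median of -0.19 dashed. Mir351, at 1.74, lies near the upper edge of the cloud, Mir503 lies below the median at -0.99, and Mir322 and Mir542 lie close to it.

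The choice of scaling moved all ratios together. Against library totals, the median log2 ratio shifted by 0.22 with TMM factors, by 0.19 with DESeq2 size factors and by 0.12 with Mir451a left out of the totals. Under those 3 scalings Mir351 had log2 ratios of 1.96, 1.94 and 1.86, Mir503 had -0.77, -0.80 and -0.87, and Mir322 had -0.12, -0.15 and -0.22, and all 3 genes were called each time. The share of all detected genes called was 59.2% with TMM factors, 59.5% with DESeq2 size factors and 58.5% without Mir451a. Mir542 was not called under any of the 3, with adjusted p of 0.675, 0.532 and 0.232 by the exact binomial test. Taken relative to the median of all detected genes, Mir351 was higher by 1.94, Mir503 lower by 0.80 (log2 difference -0.80) and Mir322 lower by 0.15 (-0.15).

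**Figure D4:**
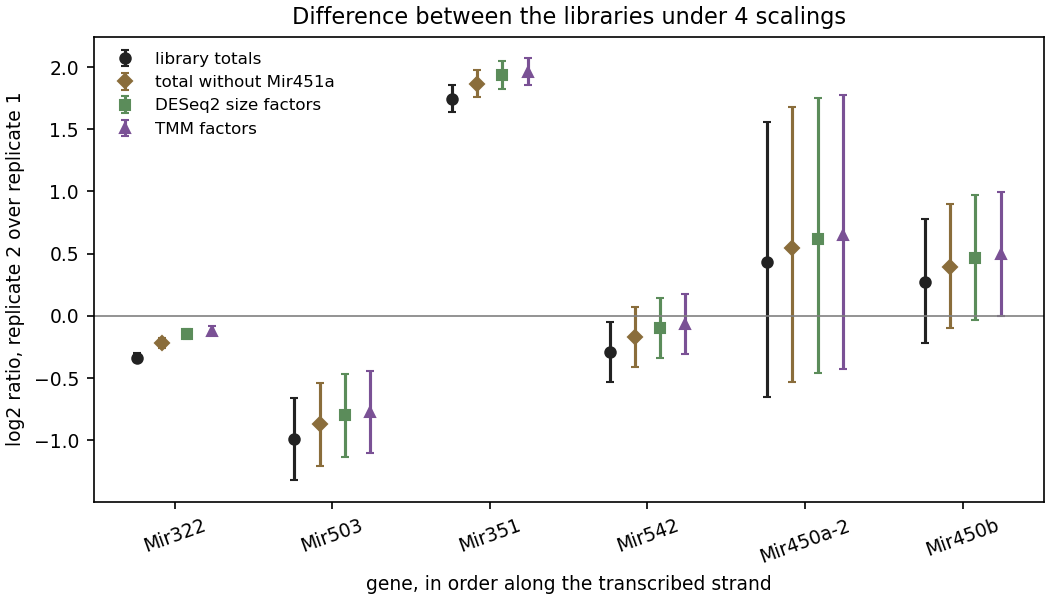
Log2 ratio of replicate 2 over replicate 1 for the 6 detected members under 4 scalings, with 95% exact binomial intervals as bars and a line at 0. Mir351 lies between 1.74 and 1.96 and Mir503 between -0.99 and -0.77 under every scaling, whereas the intervals of Mir542 reach 0 under all but library totals.

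Ratios of members within a library need no scaling, and they changed with Mir351. Mir322 had 3.22 counts for each Mir351 count in replicate 2 (exact interval 3.10 to 3.35). It had 13.6 in replicate 1 (12.7 to 14.6). The ratio of Mir351 to Mir322 was 4.23-fold higher in replicate 2 (exact conditional interval 3.91 to 4.59). Relative to Mir503 it was 6.66-fold higher (5.23 to 8.49), with 27.0 Mir351 counts per Mir503 count in replicate 2 and 4.05 in replicate 1.

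Relative to Mir322, the other detected members moved less than Mir351. The ratio of Mir542 to Mir322 differed by a factor of 1.03 (0.874 to 1.22) between replicate 2 and replicate 1, and Mir322 had 38.0 counts per Mir542 count in replicate 2 and 39.3 in replicate 1. The ratio of Mir503 to Mir322 was 1.57-fold lower in replicate 2 (1.25 to 1.98), and that of Mir450b to Mir322 was 1.53-fold higher (1.08 to 2.17). The ratio of Mir450a-2 to Mir322 differed by a factor of 1.70, with a wide interval (0.804 to 3.72). Relative to Mir503, the lowest of the called members by log2 ratio, the ratio was 2.40-fold higher in replicate 2 for Mir450b (1.58 to 3.66), 2.67-fold higher for Mir450a-2 (1.21 to 6.05) and 1.63-fold higher for Mir542 (1.22 to 2.17). The hairpins of Mir322, Mir503 and Mir351, which lie within 1 RefSeq transcript, thus changed in different proportions, and Mir322 and Mir542, which lie on either side of the widest gap, did not differ in proportion beyond counting error.

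Cell type markers also differed between the libraries. Among the heart muscle genes, Mir208a was 3.80-fold higher in replicate 2, while Mir208b was 2.14-fold lower and Mir499 1.65-fold lower. The erythroid genes Mir451a, Mir144 and Mir486 summed to 9.56% of counts in replicate 2, against 1.15% in replicate 1. All 3 were called higher, beside 19.6% of all detected genes, Mir451a by 11.1-fold, Mir144 by 3.49-fold and Mir486 by 1.12-fold. Mir451a had 240538 of the 264853 erythroid counts in replicate 2 and 18950 of 27853 in replicate 1. The fibroblast genes Mir21a, Mir214, Mir199a-1, Mir199a-2 and Mir199b held 0.252% in replicate 2 and 1.12% in replicate 1, with 2 of 3 detected genes called lower, beside 41.5% of all genes. Most of that sum was Mir21a, with 5013 counts in replicate 2 and 24289 in replicate 1, 5.54-fold lower in replicate 2 by CPM, while Mir214 was 1.60-fold lower. Mir199a-1, at 1 count in replicate 2 and 0 in replicate 1, shares bases with Mir199a-2 and Mir199b, and the levels of these 3 genes are uncertain. Leukocyte genes (Mir155, Mir150, Mir223, Mir142) held 0.424% in replicate 2 and 0.549% in replicate 1, with 3 of 4 called lower by library totals, also beside 41.5%. Mir155, not called by library totals, was called higher with TMM factors (log2 ratio 0.18, adjusted p = 1.02e-09, exact binomial test). Endothelial genes (Mir126a, Mir221, Mir222) held 8.82% in replicate 2 and 7.70% in replicate 1. By library totals Mir126a was 1.16-fold higher in replicate 2, while Mir221 was 1.14-fold and Mir222 1.82-fold lower. Smooth muscle genes (Mir143, Mir145a) held 4.45% in replicate 2 and 5.07% in replicate 1. By library totals Mir143 was 1.12-fold and Mir145a 1.95-fold lower in replicate 2. Mir143 turned to a log2 ratio of 0.06 under TMM factors and 0.03 under DESeq2 size factors. Mir221 turned to 0.03 and 0.002 under the same scalings, while Mir145a and Mir222 stayed below 0. The part of these cell types in the difference of Mir351 was not tested. The 3.35-fold difference of Mir351 was 3.64-fold with Mir451a left out of the totals.

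Genes elsewhere in the genome that carry a member's seed were set beside the cluster by their counts. These counts take in both arms of a hairpin, and only 1 arm carries the seed compared. The shares below are therefore shares of gene counts, and how many of the reads carried the seed is not given. For the seed of miR-322-5p, RefSeq lists 10 other genes, of which Mir15a, Mir15b, Mir16-1, Mir16-2, Mir195a and Mir497 were detected. Mir15b was the most abundant, with 7794 CPM in replicate 2 and 11323 CPM in replicate 1. Mir322 supplied 22.1% of the counts of genes with this seed in replicate 2 (exact Clopper-Pearson interval 21.8 to 22.5) and 20.0% in replicate 1 (19.7 to 20.3). By counted reads it stood below Mir15b and above the other detected relatives in both libraries. The next was Mir15a, with 2066 CPM in replicate 2 and 2927 CPM in replicate 1.

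These relatives are regulators of the cell cycle and of cell survival. Of the 6 detected, 5 were called lower in replicate 2 and 1, Mir16-1, was called higher, beside the 41.5% of all genes called lower and 19.6% called higher by library totals. Each kept its direction under the 3 other scalings, but with TMM factors Mir497 was not called (adjusted p = 0.0775, exact binomial test). Mir195a was the furthest apart, 2.91-fold lower in replicate 2 (exact interval 2.77 to 3.04), with 907 CPM in replicate 2 and 2636 CPM in replicate 1. Mir16-1 and Mir16-2 share the whole of miR-16-5p, so a read of it alone could be counted for neither, and their levels are uncertain. The shares given for Mir322 cover counted reads only and may be too high. Its place above Mir16-1 and Mir16-2 likewise holds for counted reads only.

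For the seed of miR-351-5p, the detected relatives were Mir125a, Mir125b-1 and Mir125b-2. Mir125a had 3467 CPM in replicate 2 and 6031 CPM in replicate 1. Mir351 supplied 24.3% of the counts of genes with this seed in replicate 2 (exact Clopper-Pearson interval 23.6 to 25.1), against 5.19% in replicate 1 (4.86 to 5.54). Its relatives moved the other way from Mir351: Mir125a was 1.74-fold lower in replicate 2 (1.70 to 1.78), Mir125b-1 1.97-fold lower (1.73 to 2.26) and Mir125b-2 1.94-fold lower (1.67 to 2.26), each with a higher log2 ratio, still below 0, under TMM factors (-0.58, -0.76 and -0.74). Mir125b-1 and Mir125b-2 share their 5′ arm product, so a read of it alone could be counted for neither, and their levels are uncertain. The shares given for Mir351 therefore cover counted reads only and may be too high. The relatives together had 10227 counts in replicate 2 and 15687 counts in replicate 1.

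**Figure D5:**
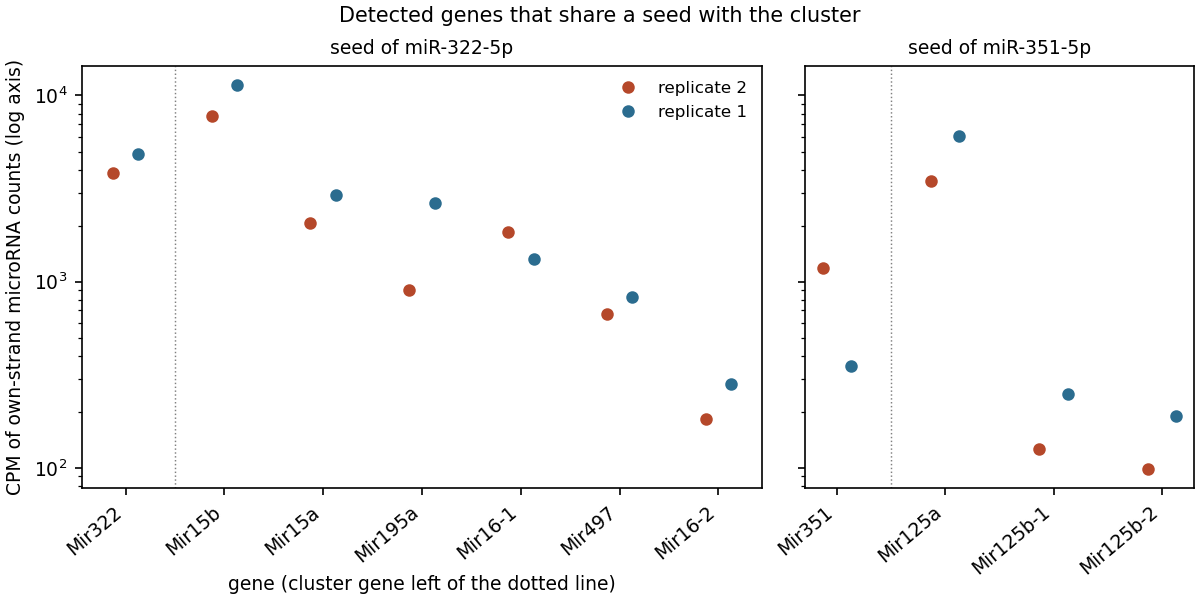
CPM on a log axis for detected genes with the seed of miR-322-5p (left panel) and of miR-351-5p (right panel), in replicate 2 (left point of each pair) and replicate 1 (right point), with the cluster gene left of the dotted line. Mir322 lies between Mir15b and Mir15a in both libraries, and Mir351 is higher in replicate 2 while Mir125a, Mir125b-1 and Mir125b-2 are lower there.

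The miR-503, miR-542-3p, miR-450a-5p, miR-450a-2-3p and miR-450b-5p seeds belong to no other listed gene outside the cluster. For miR-542-5p the single relative, Mir6966, had 7 counts in replicate 2 and 4 in replicate 1, and for the 3′ arms of Mir450a-1 and Mir450b the single relative outside the cluster, Mir6352, had 0 counts in both, which allows up to 1.08 CPM in replicate 2 and 1.24 CPM in replicate 1. Mir6966 and Mir6352 belong to the list of genes that share a member's seed, and that list was chosen with earlier results of these data known.

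Other microRNA clusters give a measure of the cluster's size. The 6 genes of the Mir17 cluster on chromosome 14, known for driving proliferation, summed to 10535 CPM in replicate 2 and 9351 CPM in replicate 1, so the Mir322 cluster had 0.494 of its counts in replicate 2 and 0.581 in replicate 1. The 6 genes of its X chromosome paralog, the Mir106a cluster, summed to 593 CPM in replicate 2 and 368 CPM in replicate 1, of which the Mir322 cluster had 8.76 times as many counts in replicate 2 and 14.8 times as many in replicate 1. Mir92-1 and Mir92-2, and Mir19b-1 and Mir19b-2, share stretches of 20 bases between these clusters, so both sums are uncertain.

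Unequal levels and ratios within a cluster were also seen in the Mir17 cluster. Mir92-1 was 1.54-fold higher in replicate 2 (log2 ratio 0.62), whereas Mir18 was 1.45-fold lower (1.28 to 1.63) and Mir17 1.12-fold lower (1.09 to 1.16) by library totals, the last turning to a log2 ratio of 0.05 under TMM factors and 0.03 under DESeq2 size factors. Its 4 detected genes were all called, 1 higher and 3 lower in replicate 2 by library totals, beside 19.6% of all genes called higher and 41.5% called lower. With TMM factors Mir20a was not called (adjusted p = 0.129, exact binomial test). By the same test Mir17 was not called with DESeq2 size factors (0.325) or with Mir451a left out of the totals (0.0622). Mir92-1, the gene called higher by library totals, shares a stretch of 20 bases with Mir92-2, so its level and ratio are uncertain. Whether the spread of ratios differed between the clusters was not tested.

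On the X chromosome, 142 microRNA genes are annotated in the tables, and 33 of them were detected, 6 in the cluster and 27 elsewhere. The cluster had 14405 of 78302 X chromosome microRNA counts in replicate 2 and 13166 of 73052 in replicate 1. Mir322 was the third most abundant X chromosome gene by mean CPM, after Mirlet7f-2 with 5827 CPM in replicate 2 and 7912 CPM in replicate 1, and Mir652 with 6980 CPM in replicate 2 and 5257 CPM in replicate 1. Mir221 (2812 CPM in replicate 2, 3206 CPM in replicate 1) and Mir98 (2118 CPM in replicate 2, 3227 CPM in replicate 1) followed. Mirlet7f-2 shares bases with Mirlet7f-1, so its level is uncertain. The other 27 detected X chromosome genes had log2 ratios of replicate 2 over replicate 1 between -2.39 and 1.55 with a median of -0.32, and the value of 1.74 for Mir351 lay above all of them.

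By distance in log2(CPM + 1) over the 2 libraries, the detected genes outside the cluster most like Mir322 were Mir125a (distance 0.35), Mir30e (0.40) and Mirlet7e (0.51). Mir30e had 4758 CPM in replicate 2 and 5717 CPM in replicate 1, and Mirlet7e had 4338 CPM in replicate 2 and 6729 CPM in replicate 1. This measure reflects level in 2 libraries alone.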

How the data were processed

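The 2 small RNA libraries of mouse heart were counted per microRNA gene by the submitters, and the deposited values are raw counts with no normalization. Per the labels and the text deposited with the tables, reads were placed on mm10 and counted on GENCODE M21. Which aligner, counting tool and trimming they ran is not given in the sources used here. Without a header, the 3 count columns were read from their values as either-strand, own-strand and opposite-strand reads. The first 4 lines name no gene, held 65.3% of replicate 2 and 70.0% of replicate 1, and were left out.

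The rule for the cluster genes used symbols and no measured value. The rule, the comparison lists and the alternatives were nevertheless set with earlier results of these data known. The named genes are all members, all genes of the comparison and marker lists, the 5 most abundant X chromosome genes and the 3 genes nearest to Mir322. Mature sequences and the printed and folded hairpins came from RefSeq (GRCm38.p6), which held mature sequences for all 7 members and hairpins for 6. Hairpin sequences of GENCODE M21 were searched for stretches of 20 bases shared with another locus. All 7 members matched an annotated gene, 2 of them through an older symbol.

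CPM is the own-strand count per 1000000 such counts of the library. Genes with at least 10 counts in both libraries were tested for replicate 2 over replicate 1 by an exact binomial test (two-sided, given library totals), with Benjamini-Hochberg adjustment at 0.05, and a call at 1.5-fold was counted beside it. The test was checked on simulated data. Over detected genes the libraries differed by a chi-square of 1138 per degree of freedom, so the tables are not copies of each other. Intervals are exact at 95%, means and SDs are over 2 libraries, and a count of 0 was taken to allow 3 counts. As alternatives, either-strand counts were used, as were other filters on counts, TMM (edgeR 4.0.16) and DESeq2 1.42.0 size factors, other denominators, and each replicate alone. Python 3.11.15, numpy 2.4.6, pandas 2.3.3, scipy 1.17.1, matplotlib 3.10.9, R 4.3.3 and RNAfold 2.7.2 were used.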

Additional observations from a re-analysis of the deposited data

Results flagged for a closer look

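Multimapping reads, which were counted for no gene, numbered 3410568 in replicate 2 and 3992614 in replicate 1. Among the cluster genes, Mir450a-2 and Mir450a-1 share a mature arm, and how many of these reads came from it was not tested.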

How the results depend on the processing

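The cluster's mean share of 0.532% of counts was 0.712% with either-strand counts, 0.219% with multimapping reads added to the denominator, 0.558% with Mir451a left out of the total and 0.0984% without Mir322 (0.137% in replicate 2 and 0.0596% in replicate 1), and it lay within 1 SD without members that share bases. With either replicate left out it ran from 0.520 to 0.543%. The shift with either-strand counts follows from the smaller total over genes, since the members' own counts were equal in both columns. Of 4 members called different between the libraries, 2 remained when a 1.5-fold difference was also required, and 3 were called under TMM factors, DESeq2 size factors, the total without Mir451a, either-strand counts and the filter of 1 count over both libraries. Mir542 was the member that lost its call each time, with log2 ratios from -0.29 to -0.07. Mir351, Mir503 and Mir322 kept direction and call under all 6 alternatives run for their ratios. Alternatives for 3 results were added after seeing the data. These were the ratio of Mir322 to Mir351, the share of Mir351 in the counts of genes with its seed, and the ratio to the Mir17 cluster. Leaving out replicate 1 or replicate 2, they ran from 3.22 to 13.6, from 5.19 to 24.3% and from 0.494 to 0.581, and the first 2 therefore rest on which library is used. Tests between the libraries could not be run with a replicate left out. No paired analysis was possible because the labels give a single group. Depth limits Mir450a-2 and Mir450a-1, with at most 20 counts in a library.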

Other observations

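Hairpins of 6 of the 7 genes were folded with RNAfold. The predicted minimum free energy was -42.9 kcal/mol for Mir322 (95 bases, 51.6% G and C), -37.6 for Mir503 (71 bases, 54.9%), -38.1 for Mir542 (85 bases, 51.8%), -26.5 for Mir450a-2 (69 bases, 36.2%), -41.0 for Mir450a-1 (91 bases, 33.0%) and -31.8 for Mir450b (82 bases, 30.5%). Mir450a-1, with the lowest count, had the second lowest predicted energy, so the order of energies was not the order of levels. The 3 miR-450 hairpins had the lowest G and C content of the 6. Among the 6 mature 5′ arm sequences, G and C content was highest in miR-351-5p at 62.5% and lowest in miR-450a-5p and miR-450b-5p at 31.8%, and 40.9% in miR-322-5p.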
